A study of Mus musculus with 2 samples.

Results

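The TGF-beta and activin genes described here are the ligands Tgfb1, Tgfb2 and Tgfb3, the receptors Tgfbr1, Tgfbr2 and Tgfbr3, the activin and inhibin subunits Inhba and Inhbb, and the activin antagonist Fst. They were chosen by name, and all 9 were found among the 29875 named genes of the array, with 14 of its 39429 probes. Where a gene had several probes, the brightest over all channels was used, and for the 9 genes the others are given beside it. Ureters of wild-type NMRI mice at postnatal day 0 were explanted and kept for 18 h in medium with 10 µM cyclopamine, which blocks the SHH signal transducer SMO, or with solvent alone as control (DMF at 1:1000 per the labels, whereas the methods of the study name ethanol for cyclopamine). Pooled RNA was read on 2 Agilent oligonucleotide arrays with 2 colours, each with a cyclopamine pool against a control pool of the same sex. Replicate 1 held female pools with the control in green and cyclopamine in red. Replicate 2 held male pools with the dyes swapped, so that sex, dye orientation and replicate cannot be told apart. One label field of the treated RNA reads IWP-2, an inhibitor of WNT secretion, while title, treatment and protocol name cyclopamine. Whole ureters were pooled, so fewer cells of a type and less RNA per cell cannot be told apart in any value below.

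The TGF-beta ligands are secreted in a latent form and released in the matrix. They bind the type II receptor TGFBR2, which recruits and phosphorylates the type I receptor TGFBR1, and this in turn phosphorylates the transducers SMAD2 and SMAD3. Activins are dimers of the subunits encoded by Inhba and Inhbb and reach the same SMADs through receptors of their own, and follistatin, the product of Fst, binds activins and keeps them from these receptors. In visceral organs the pathway is best known for its effects on smooth muscle and fibroblast matrix genes.

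The array probes are 60-base oligonucleotides, and 4 of those behind the values below are shown in the sense direction of the gene, a pair of related ligands, the gene with the lowest ratio and a receptor probe at the end of its coding sequence, with positions in build mm9 from the array annotation. The Tgfb1 probe lies at chr7:26489877-26489936 on the + strand and the Tgfb2 probe at chr1:188449333-188449392 on the - strand. Both ligands are close relatives, and capitals mark the bases that are identical where the 2 probes overlap without gaps, which is 28 of 41 bases or 68.3%.
Tgfb1: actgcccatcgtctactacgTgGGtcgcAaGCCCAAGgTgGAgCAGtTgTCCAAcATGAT
Tgfb2: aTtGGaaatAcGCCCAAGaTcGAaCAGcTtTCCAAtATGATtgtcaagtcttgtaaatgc
The Inhba probe (chr13:16118634-16118693, + strand) reads the activin gene with the lowest ratio. The second Tgfbr2 probe (chr9:115999496-115999555, - strand) ends, in capitals, with the stop codon of the receptor.
Inhba: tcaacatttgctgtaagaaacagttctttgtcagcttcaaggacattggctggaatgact
Tgfbr2: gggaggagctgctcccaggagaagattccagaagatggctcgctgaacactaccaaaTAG

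Values are spot intensities after background subtraction and dye balancing within the array by the scanner software. They were not scaled between arrays, and the 75th percentile of control intensities came to 3337 for replicate 1 but 628 for replicate 2. Ratios are log2 of cyclopamine over control, turned to this direction on both arrays. The limma test was run on 25975 probes that were well above background in the same condition on both arrays, adjusted by the method of Benjamini and Hochberg, with 0.05 as the limit. The p-values and confidence intervals rest mostly on a variance pooled over all probes, and little on the spread of a gene's own 2 values. An interval can therefore be narrower than the gap between the arrays, and none of them reaches beyond these pools. Known SHH targets, read first as a check of the inhibitor, were lower on both arrays. Gli1 had log2 ratios of -1.83 and -2.09 and Ptch1 of -1.13 and -1.49, whereas the brightest Hhip probe had -0.31 and -1.99 and its other probe -0.99 and -2.32, both less reduced on replicate 1. Over all tested probes the SD of the ratios was 0.46 for replicate 1 and 0.30 for replicate 2, and the arrays correlated weakly (Pearson r 0.24 and Spearman rho 0.22 across probes, none of them an independent replicate). The markers of urothelium, smooth muscle, fibroblasts, endothelium, leukocytes, and glia and neurons were well above background in all 4 channels, and the kidney tubule genes Umod, Slc34a1 and Slc12a1 in none.

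None of the TGF-beta and activin genes passed the limma limit. The count was 0 of 9 lower and 0 of 9 higher, beside 0.869% of 19328 tested genes called lower and 0.435% called higher. The filter of the study was rebuilt as a control intensity above 100 on each array, with a change of 1.5-fold or more in one direction on both. By it, 0 of 9 were lower and 0 of 9 higher, beside 0.631% and 0.213% of 13638 genes. The paper lists more lower genes than the 86 found here. The limit of 100 was applied to intensities not scaled between arrays. On a common 75th percentile 129 genes were lower and 56 higher, with 0 of the 9 genes in either. Of the 9 genes, 6 had a ratio above 0 on both arrays (Tgfb2, Tgfb3, Tgfbr1, Tgfbr2, Tgfbr3 and Inhbb), beside 28.6% of all tested genes. None was below 0 on both arrays, beside 29% of all genes, and 3 (Tgfb1, Inhba and Fst) had opposite signs, beside 42.4%. The median ratio of the 9 genes was 0.44 on replicate 1 and 0.22 on replicate 2, where that of all tested genes was 0.00 on both. All 9 probes were well above background in all 4 channels.

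**Figure D1:**
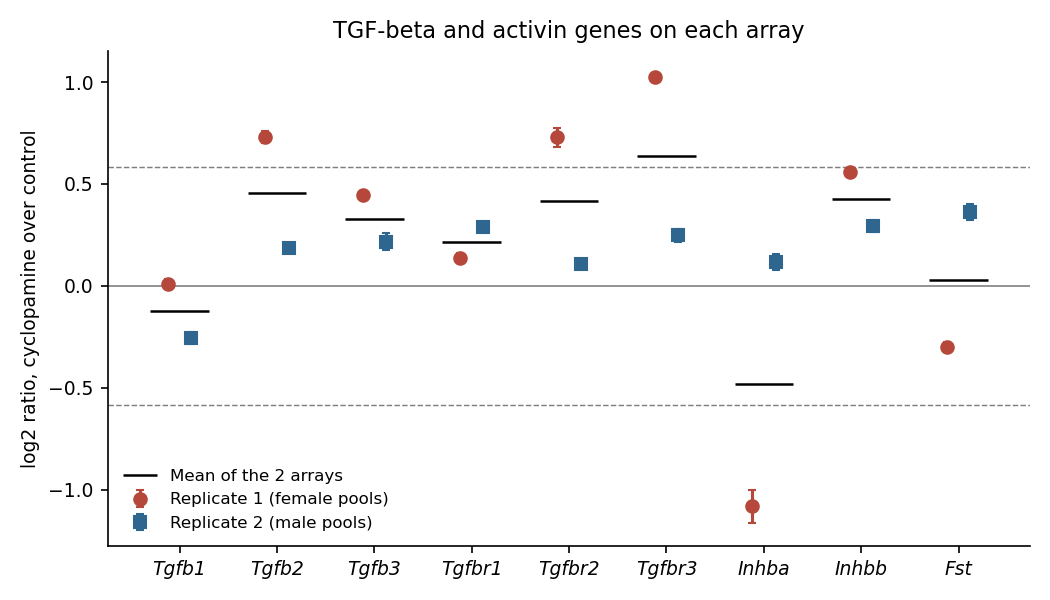
Log2 ratio of cyclopamine over control (y axis) for the 9 TGF-beta and activin genes (x axis) on replicate 1 (circles, female pools) and replicate 2 (squares, male pools), with bars for the SD over the spots of a probe, black lines for the mean of both arrays and dashed lines at a 1.5-fold change. No gene lies beyond the same dashed line on both arrays, and Inhba shows the widest gap, from -1.08 to 0.12.

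Among the ligands, Tgfb2 had the highest ratio and Tgfb1 the lowest. Tgfb2, the isoform that depends most on betaglycan for receptor binding, had a control intensity of 6068 and a cyclopamine intensity of 10067 on replicate 1, and 1404 and 1595 on replicate 2. Cyclopamine was above control on both arrays, and the difference was 1.66-fold on replicate 1 and 1.14-fold on replicate 2. The mean log2 ratio was 0.46 ± 0.39 (SD, n = 2), with a limma 95% confidence interval of -0.0020 to 0.92 and an adjusted p of 0.534. The second Tgfb2 probe gave 0.66 and 0.22.

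Tgfb3 had intensities of 8350.4 and 11355 on replicate 1 and of 1764 and 2049 on replicate 2, control first. Cyclopamine was again above control on both arrays, with log2 ratios of 0.44 and 0.22 and a mean of 0.33 ± 0.16 (SD, n = 2, limma adjusted p 0.682). Tgfb1, the ligand most widely made by immune and stromal cells, had intensities of 2229 and 2244 on replicate 1 and of 492 and 412 on replicate 2. The channels of replicate 1 were level, and cyclopamine lay below control only on replicate 2. The log2 ratios were 0.01 and -0.25, with a mean of -0.12 ± 0.19 (SD, n = 2, limma adjusted p 0.902).

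**Figure D2:**
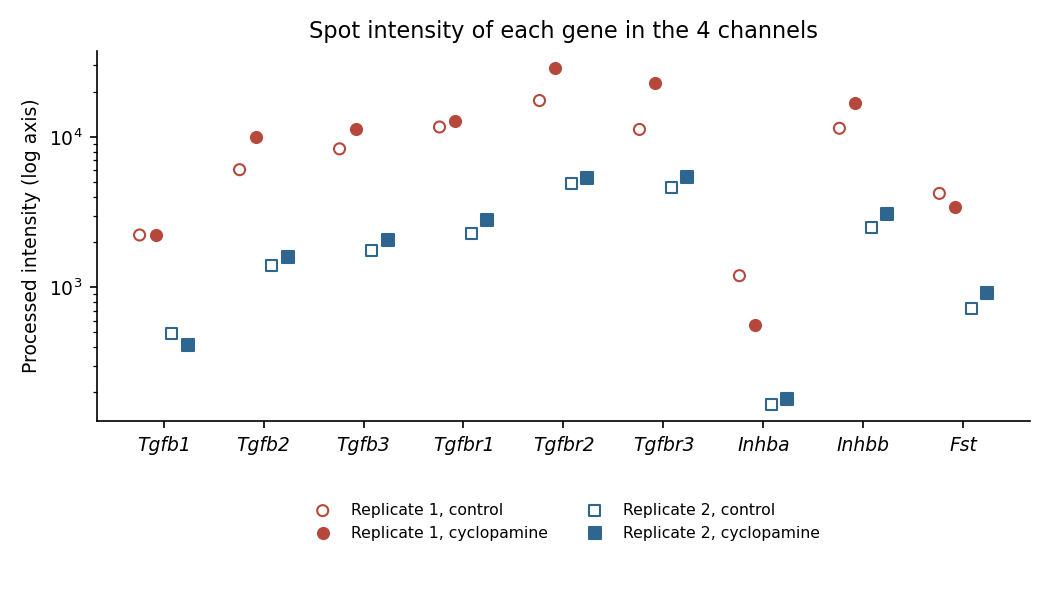
Processed spot intensity (y axis, log scale) of the 9 genes (x axis) in the 4 channels, with open symbols for control and filled symbols for cyclopamine, circles for replicate 1 and squares for replicate 2. Intensities of replicate 2 are lower for every gene, because the arrays were not on a common scale, so only the pair of symbols of one array can be compared.

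Of the receptors, Tgfbr3 (betaglycan, a co-receptor that presents TGF-beta ligands to TGFBR2 and also binds inhibin) had the largest mean ratio of the 9 genes. Its intensities were 11244.5 and 22857 on replicate 1 and 4588 and 5449 on replicate 2, control first. Cyclopamine exceeded control 2.03-fold on replicate 1 but only 1.19-fold on replicate 2. The mean log2 ratio was 0.64 ± 0.55 (SD, n = 2) with a 95% interval of 0.17 to 1.10, and the limma adjusted p of 0.240 was the lowest of the 9. On replicate 1 the ratio exceeded that of 99.0% of tested genes, and on replicate 2 that of 89.0%.

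Tgfbr2, the type II receptor that binds TGF-beta itself, had intensities of 17514 and 29024 on replicate 1 and of 4938 and 5318 on replicate 2. The log2 ratios were 0.73 and 0.11, with a mean of 0.42 ± 0.44 (SD, n = 2, limma adjusted p 0.597). Cyclopamine was higher on both arrays, and the difference was larger on replicate 1. The probe at the stop codon gave 0.87 and 0.21 (mean 0.54, adjusted p 0.393 by limma).

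Tgfbr1, the type I receptor kinase, had probes that differed from each other. Its brightest probe had intensities of 11674 and 12845 on replicate 1 and of 2282 and 2787 on replicate 2, with log2 ratios of 0.14 and 0.29 and a mean of 0.21 ± 0.11 (SD, n = 2, limma adjusted p 0.808). Another probe gave 0.56 and 0.60 with a mean of 0.58 ± 0.03 (SD, n = 2, limma adjusted p 0.310), the smallest spread between arrays among the member probes tested. The third probe gave 0.57 and 0.18, and the fourth was not well above background in any channel. All tested Tgfbr1 probes thus lay above 0 on both arrays, and no probe passed the limit.

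**Figure D3:**
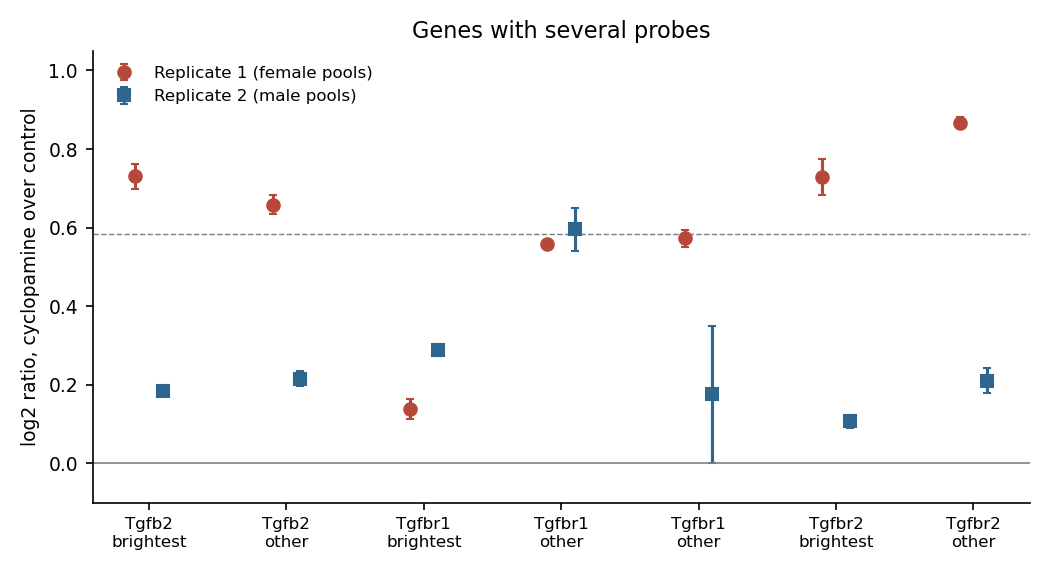
Log2 ratio of cyclopamine over control (y axis) for the probes of Tgfb2, Tgfbr1 and Tgfbr2 that were well above background in all 4 channels (x axis), on replicate 1 (circles) and replicate 2 (squares), with bars for the SD over spots and a dashed line at a 1.5-fold increase. The brightest Tgfbr1 probe (0.14 and 0.29) lies below another probe of the gene (0.56 and 0.60), while the probes of Tgfb2 and of Tgfbr2 lie close together.

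The activin subunits went apart. Inhba, which encodes the subunit of activin A, had intensities of 1194 and 564 on replicate 1 and of 166 and 180.2 on replicate 2, control first. Cyclopamine was 2.12-fold below control in the female pools and 1.09-fold above it in the male pools. The mean log2 ratio was -0.48 ± 0.85 (SD, n = 2), with a 95% interval of -0.96 to 0.00080 and a limma adjusted p of 0.532. The spread between arrays exceeded the mean, and on replicate 1 alone the ratio was lower than that of all but 0.890% of tested genes.

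Inhbb, which encodes the subunit of activin B, had intensities of 11446 and 16881 on replicate 1 and of 2514 and 3084 on replicate 2. Cyclopamine was higher on both arrays, 1.48-fold and 1.23-fold. The mean log2 ratio was 0.43 ± 0.19 (SD, n = 2), with a limma adjusted p of 0.573. Fst, the activin antagonist, had intensities of 4219 and 3426 on replicate 1 and of 718 and 923 on replicate 2. It was thus lower with cyclopamine in female pools and higher in male pools, and the log2 ratios of -0.30 and 0.36 averaged 0.03 ± 0.47 (SD, n = 2, limma adjusted p 0.979).

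On replicate 1, ratios were higher for genes that are longer in the genome (Spearman rho 0.44 over 22593 tested probes, which are not independent replicates), and on replicate 2 rho was 0.035. Tgfbr3 is the longest of the 9 genes at 183 kb, and Tgfb2 and Tgfbr2 measure 86.9 and 87.7 kb. Once a smooth trend with length was removed from each array, Tgfbr3 had log2 ratios of 0.71 and 0.26, Tgfb2 of 0.47 and 0.17 and Tgfbr2 of 0.47 and 0.09. All 3 remained above 0 on both arrays but were lower on replicate 1. Inhbb, a gene of 6.79 kb, moved the other way to 0.74 and 0.30. The brightest Tgfbr1 probe changed sign on replicate 1, to -0.08. The other tested probes of this gene stayed above 0 on both arrays (0.34 and 0.57, and 0.35 and 0.15). By the brightest probe, 5 of the 9 genes were then above 0 on both arrays. The share of all tested genes above 0 on both arrays was counted only for ratios as measured, so this count has no background beside it. Inhba kept its opposite signs at -1.16 and 0.09. The part of gene length in these values was not tested.

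**Figure D4:**
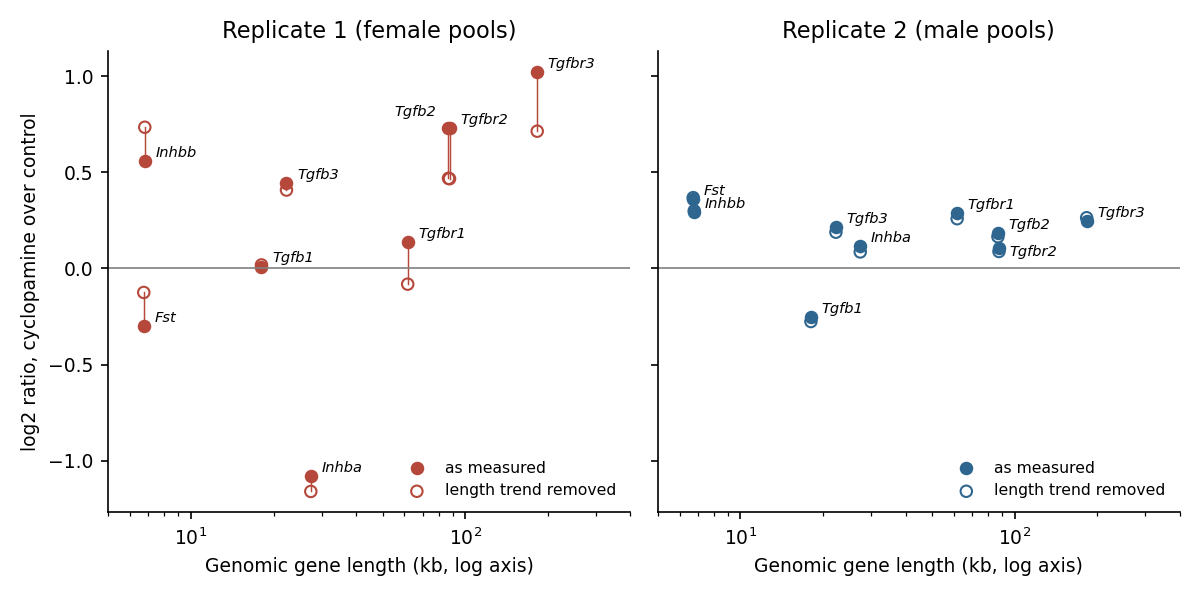
Log2 ratio of cyclopamine over control (y axis) of the 9 genes against their length in the genome (x axis, kb, log scale) on replicate 1 (left) and replicate 2 (right), as measured (filled) and after removal of the trend of all tested probes with length (open). The long genes Tgfbr3, Tgfb2 and Tgfbr2 come down and the short Inhbb and Fst go up on replicate 1, and on replicate 2 the points hardly move.

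Markers of the cell types of the explant were read beside these values. The 4 endothelial markers had a median log2 ratio of 0.65 on replicate 1 and -0.11 on replicate 2, and their summed intensity went from 39112 to 62770 on replicate 1 and from 11632 to 10173 on replicate 2. The 5 markers of lamina propria and other fibroblasts had medians of 0.13 and -0.48, with summed intensities of 111811 and 163488 on replicate 1 and of 45941 and 35775 on replicate 2. They did not move as one, with 2 higher and 2 lower on both arrays. Their log2 ratios ran from -0.83 to 1.27 on replicate 1 and from -0.79 to 0.12 on replicate 2. The 6 smooth muscle markers had medians of -0.12 and -0.62 (322574 and 287126 on replicate 1, 85980 and 51833 on replicate 2), with 5 of 6 lower on both arrays and Actg2 as the only marker called by limma. The 7 urothelial markers had medians of 0.16 and 0.13, with 5 higher on both arrays, and the 4 glial and neuronal markers of -0.43 and 0.03. The part of these cell types in the ratios of the 9 genes was not tested.

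The rest of the pathway was read from lists of genes by role. In the list of latency and activation genes (binding proteins that hold latent TGF-beta in the matrix, and integrins and other factors that release it) 0 of 12 genes were called. All 12 were above 0 on replicate 1, beside 9617 of 19328 tested genes, but 4 on replicate 2, beside 9642. The medians were 0.72 and -0.14, and 0.44 and -0.16 with the length trend removed. Thbs1, an activator of latent TGF-beta, had log2 ratios of 1.07 and 0.08 (limma adjusted p 0.348), and the integrin gene Itgav had 0.97 and 0.16 (0.356). Lrrc32, which tethers latent TGF-beta to the cell surface, had 0.14 and -0.53 (0.827). Of the genes of all lists that were measured in every channel, 58 in number, Itgav, Thbs1 and Ltbp3 had the ratios closest to those of Tgfbr3 over both arrays (Euclidean distances of 0.10, 0.17 and 0.27 on the log2 scale). Closest to Inhba were Timp1, Il11 and Cdkn2b (0.45, 0.51 and 0.51).

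Among the other ligands of the activin and nodal class, 6 of 8 genes were tested and 1 was called. Mstn (myostatin, a ligand best known as a brake on skeletal muscle growth) rose with cyclopamine. Its intensity went from 63.6 to 362 on replicate 1 and from 8.02 to 40.7 on replicate 2, well above background in all 4 channels. Cyclopamine was 5.69-fold and 5.08-fold above control, and the log2 ratios of 2.51 and 2.34 gave a mean of 2.43 ± 0.12 (SD, n = 2) or 5.38-fold, with a limma adjusted p of 3.0e-11. The control intensity was under the limit of 100, so Mstn did not enter the filter of the study. In another setting the raw signals were background-corrected by normexp with an offset of 50 and the dyes balanced by loess. There the mean was 1.45 (adjusted p 0.00453 by limma). Gdf11 had 0.15 on both arrays, Nodal had -0.28 and -0.20, and Inha, the inhibin subunit, had -0.39 and 0.30. Inhbc and Inhbe were not tested.

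Among the other receptors and co-receptors, 7 of 8 genes were tested and 1 was called. Acvr1c (ALK7, a type I receptor for activin B and nodal) had intensities of 35.8 and 61.0 on replicate 1 and of 6.58 and 13.8 on replicate 2, with log2 ratios of 0.77 and 1.07, a mean of 0.92 ± 0.21 (SD, n = 2) and a limma adjusted p of 0.0209. These are dim spots, and another probe of the gene gave -0.22 and -0.57 (adjusted p 0.619 by limma). The mean of the probes was 0.26 (limma adjusted p 0.813), and the call was also lost with the normexp correction at offset 50 (0.37, limma adjusted p 0.621). Acvr2a, a type II activin receptor, had 0.60 and 0.25. Acvrl1 had -0.06 and -0.19, and the co-receptor gene Tdgf1 had -0.29 and 0.15.

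**Figure D5:**
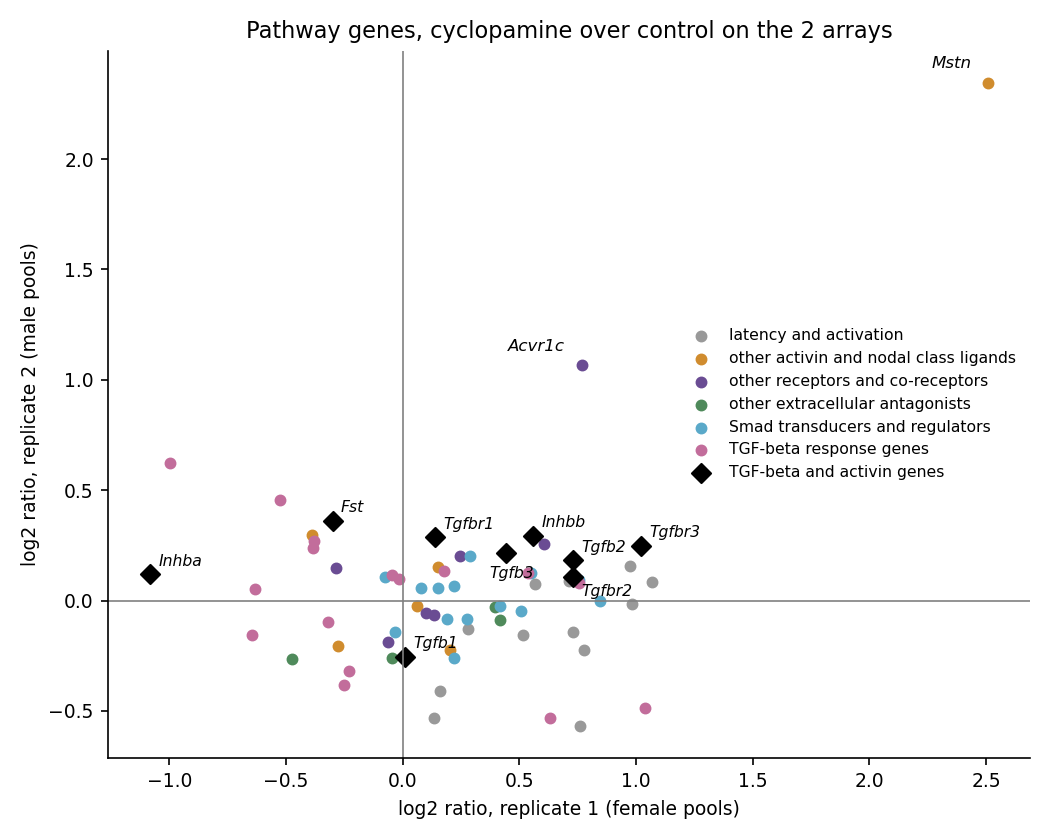
Log2 ratio of cyclopamine over control on replicate 1 (x axis) against replicate 2 (y axis) for the 9 TGF-beta and activin genes (diamonds, named) and the tested genes of 6 pathway lists (dots, each gene drawn in the colour of its first list). The genes called by limma, Mstn (2.51 and 2.34) and Acvr1c (0.77 and 1.07), stand apart at the upper right, and the latency genes (grey) lie to the right of 0 on replicate 1.

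None of the other lists held a called gene. Of 4 tested extracellular antagonists, 0 were called; the follistatin-like gene Fstl3 had log2 ratios of -0.47 and -0.27, Lefty2 of -0.04 and -0.26, Dcn of 0.42 and -0.09, and Bgn of 0.40 and -0.03. Of 14 genes for SMAD transducers and their regulators, 0 were called, 6 were higher and 1 lower on both arrays, and the medians were 0.25 on replicate 1 and 0.03 on replicate 2. The median of the means was 0.12, and 0.071 with the length trend removed or 0.21 with the mean of all probes of a gene. Smad3, a direct substrate of TGFBR1, had 0.85 on replicate 1 and 0.00 on replicate 2, and another probe gave 0.83 and 0.16. Smurf2, a ubiquitin ligase, had 0.75 and 0.09, while other probes of the gene gave 0.19 and 0.01, and 0.70 and 0.05. Smad7, the inhibitory SMAD induced by the pathway, had -0.03 and -0.14, and the co-repressor gene Ski had 0.22 and -0.26.

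The response list held 20 genes that TGF-beta is known to induce in many cell types. None was called, 5 were higher and 5 lower on both arrays, and 10 had opposite signs, with medians of -0.04 on replicate 1 and 0.07 on replicate 2. The highest means were those of Tgfbi (0.76 and 0.08), which encodes a matrix protein, and Klf10 (0.54 and 0.12). The lowest were those of the cell cycle inhibitor gene Cdkn2b (-0.65 and -0.16) and of Tgfb1i1 (-0.25 and -0.38). Another probe of Cdkn2b gave -0.70 and -0.16, and a dimmer one of Tgfb1i1 gave -0.19 and 0.01. None of these values passed the limit, and the lists share Ltbp2, Smad7, Skil and Pmepa1.

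Start-site windows were searched for letters of 2 transcription factor motifs, on both strands, in the RefSeq table of build GRCm38.p6 (250 bases before to 50 after a gene start). Of the 9 genes, 6 had a window, with 7 windows in all. The GLI motif GACCACCCA, bound by the factors downstream of SHH, was found in 0 of 7 windows, beside 0.253% of 32851 windows. The letters CAGACA of the SMAD box were found in 2 windows, those of Tgfb2 and Tgfbr1, beside 21.0% of all windows. Matches are a description of these windows and say nothing about the binding of a factor.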

How the data were processed

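Two-colour arrays of cyclopamine against control pools were analysed as 2 replicates with swapped dyes. The deposited files hold spot intensity values and flags per channel from Feature Extraction 12.2.0.7 (the labels state 10.7.3.1). Background subtraction and a linear and LOWESS balancing of the dyes had been applied to it, per the file headers, and the deposited log10 ratio, red over green, was used for orientation only. The authors' deposited series table holds a score, a signed fold change rounded by the authors, used as an alternative. Outlier spots were left out, and up to 4 spots per probe were averaged on the log2 scale.

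R 4.3.3 with limma 3.58.1 fitted the ratios by lmFit and eBayes in a design of +1 and -1 by dye orientation, without an intercept. With 2 arrays, 1 residual degree of freedom is left, so the variance rests mostly on the prior pooled over probes, and precision is limited by the number of arrays. Testing required a share of 0.5 or more of a probe's spots well above background in one condition on both arrays. On simulated ratios over 25975 probes, all of 200 changed probes with log2 changes of 1 or 2 were recovered and 11 unchanged probes were called. The simulated noise was normal, independent between arrays and set at 0.5 of the observed SD between arrays, without a length trend. The recovery thus checks that the code runs, and cannot say which changes these 2 arrays could detect.

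Named from each list were the genes called or past the filter and the largest mean ratios in each direction, up to 2, and for likeness the 3 nearest genes. The members and lists were chosen with earlier results of these data known. The length trend was a loess with span 0.5.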

Additional observations from a re-analysis of the deposited data

Results flagged for a closer look

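Several ratios and list medians had opposite signs in the female pools of replicate 1 and the male pools of replicate 2. Each sex has 1 array, and the dye orientation was swapped with it, so these differences were not tested. Female minus male, the log2 ratios differed by 0.26 for Tgfb1, by -1.20 for Inhba and by -0.66 for Fst, so that Inhba had the widest gap of the members with opposite signs. The medians differed by 0.86 for the latency and activation list, by 0.35 for the extracellular antagonists and by -0.11 for the response genes. Among named genes of the lists, the differences were 0.43 for Bgn, 0.50 for Dcn, -0.68 for Inha and 0.67 for Lrrc32. They were 0.48 for Ski, 0.85 for Smad3 and -0.44 for Tdgf1. Some of these signs rest on a value near 0, as for Tgfb1 on replicate 1 (0.01) and, on replicate 2, Bgn (-0.03) and Smad3 (-0.00070). Another Smad3 probe was above 0 on both arrays, at 0.83 and 0.16.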

How the results depend on the processing

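No TGF-beta or activin gene was called by limma under any of the alternatives, and the lowest adjusted p was 0.125, for Tgfbr3. In the alternatives that kept both arrays, no mean log2 ratio of the 9 genes changed sign: Tgfbr3 ranged from 0.49 to 0.67, Inhba from -0.54 to -0.47 and Tgfbr1 from 0.089 to 0.39. With a single array, Inhba was 0.12 without replicate 1 and -1.08 without replicate 2, Fst 0.36 and -0.30, and Tgfb1 -0.25 and 0.01. By the filter of the study, 1 gene (Tgfbr3) was higher when the fold was read from the mean log2 ratio, where 141 of all genes were higher in place of 29. Without each replicate, 0 to 1 genes were lower (Inhba, without replicate 2) and 0 to 3 higher (Tgfb2, Tgfbr2 and Tgfbr3, without replicate 2), and without replicate 2 the counts over all genes also went up, to 1180 lower and 1159 higher from 86 and 29. The count of members above 0 on both arrays, read from the brightest probe, was 5 in place of 6 with the length trend removed. It was compared after seeing the data, without the share of all genes in that setting.

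Counts over all probes moved more: lower and higher probes numbered 200 and 118 in the report, 42 and 12 with normexp offset 50, 125 and 55 with normexp offset 10, and 0 and 0 with the series table (818 and 1051 at an unadjusted p under 0.05). With the pairing of the channels dropped, the fit had no replicate block and gave 0 lower and 0 higher probes (2 and 1 unadjusted), and without the filter on dim probes 216 were higher. The call of Mstn was lost with the series table (mean log2 ratio 2.39, adjusted p 0.511) and with the pairing dropped (2.43). That of Acvr1c was lost with both (0.85 and 0.92), with normexp offset 10 (0.55, adjusted p 0.327), with an intensity trend (0.92, adjusted p 0.10) and with the length trend removed (0.78, adjusted p 0.0543).

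The median of the other activin and nodal ligands (0.0039) was 0.12 with the length trend removed and 0.063 to 0.11 without each replicate. That of the other receptors (0.036) was 0.069 with the series table, 0.10 without the dim filter, 0.024 with the length trend removed, 0.21 with the mean of all probes and 0.14 to 0.15 without each replicate. That of the latency list (0.29) was 0.17 with the length trend removed and -0.14 to 0.72 without each replicate, and that of the SMAD list (0.12) was 0.027 to 0.25 without each replicate. The medians of the antagonists and the response genes, both near 0, changed sign between settings. The cause of these changes was not tested. Low intensity limits the values of Mstn, Acvr1c, Nodal and Lefty2.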
